A study of Mus musculus with 20 samples.

Results

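The 10 serotonin receptor genes Htr1a, Htr1b, Htr1f, Htr2a, Htr2c, Htr3a, Htr4, Htr5a, Htr6 and Htr7 were followed through RNA-seq libraries of the mouse neocortex and hippocampus. They were taken by gene symbol from the 24421 genes counted in every library, which hold 14 serotonin receptor symbols in all. RNA was measured at 3 months of age in 5 libraries for each genotype and region, 20 libraries in all, from cTKO mice and littermate controls of both sexes. The cTKO mice lack the APP family, which is the amyloid precursor protein gene App and its homologs Aplp1 and Aplp2, in excitatory neurons of the forebrain. The deletion is made after birth by Cre driven from the Camk2a promoter, which acts on floxed segments of the 3 genes, so that other cells of the dissected tissue keep them. The controls, which the labels call wild type, carried the floxed alleles without Cre, given in the study as fAPP/fAPP, fAPLP2/fAPLP2 and, in its spelling, fAPLP1/fAPLP2.

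Serotonin reaches the forebrain through axons of the raphe nuclei in the brainstem and acts there on receptors of several families. The receptors of the 1 and 5 families couple to inhibitory Gi/o proteins, those of the 2 family to Gq and phospholipase C, and the receptors 4, 6 and 7 to Gs and adenylyl cyclase, whereas the 3 receptors are cation channels opened by serotonin. Pyramidal neurons, interneurons and the choroid plexus each carry a different set of them, and the raphe neurons themselves were not part of the dissected tissue.

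The libraries held between 12169474 and 25331954 counts, and 3 counts, taken as the smallest level a library can show, stood for 0.118 to 0.247 counts per 1000000 counts of the library (CPM). App, Aplp1 and Aplp2 were lower in each cTKO library than in any control library of its region, with log2 fold changes from -1.25 for Aplp2 in the hippocampus to -2.10 for App in the neocortex. Marker genes of hippocampal excitatory neurons summed to between 252 and 408 CPM in the hippocampal libraries and between 37.6 and 53.1 CPM in the neocortical ones, as the labels say. Transcripts of embryonic tissue stood high in cTKO neocortex 5 (997 CPM, summed over 10 genes) and cTKO hippocampus 4 (612 CPM), against 49.6 to 383 CPM in the other libraries. Marker genes of raphe serotonin neurons summed to at most 2.80 CPM in any library. Marker genes of striatal projection neurons summed to 186 to 396 CPM in the neocortical libraries and to 33.7 to 45.2 CPM in the hippocampal ones. The part of such neurons in the regional differences below was not tested.

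All 10 receptors were detected in every library, and all passed the filter of 1 CPM in at least 5 libraries in each comparison. Of the receptors outside the set, Htr5b reached 7.05 to 10.5 CPM in the control hippocampus and Htr1d 1.18 to 2.62 CPM in the control neocortex. Htr2b and Htr3b had at most 6 and 3 counts in any library. To compare levels between genes, CPM were divided by the exon length in the GENCODE annotation. By this level per kilobase the control neocortex was led by Htr2c (8.27 ± 0.531 CPM per kb, SD, n = 5), a Gq-coupled receptor, Htr5a (6.96 ± 0.327), Htr2a (4.56 ± 0.350) and Htr1a (4.42 ± 0.503). Htr2a and Htr1a overlapped there, whereas the libraries of Htr2c and Htr5a each lay apart from those of the next receptor. In the control hippocampus the order was headed by Htr1a (12.8 ± 2.28 CPM per kb), the inhibitory receptor of pyramidal neurons, and Htr2c (10.8 ± 2.29), which overlapped, followed by Htr3a (6.47 ± 0.784).

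The least abundant of the 10 differed between the regions. In the control neocortex it was Htr4 with 0.397 ± 0.104 CPM per kb, 1.13% of the summed level of the 14 receptors, whereas in the control hippocampus Htr4 made up 6.35% and Htr1f was lowest with 0.643 ± 0.123 CPM per kb. The rank of Htr2c depended on the length used: with the exons of all annotated transcripts (9328 in place of 5057 bases) it fell to rank 3 in the control neocortex and rank 3 in the control hippocampus. In the GENCODE annotation of GRCm38, Htr2c lies at chrX:146962513-147197277, Htr2a at chr14:74640840-74709494, and Htr1a, a gene of 1 exon, at chr13:105443639-105448122. Small RNA genes within Htr2c have rows of their own in the counts, and a gene on the opposite strand, D430036J16Rik, overlaps Htr1b. The small RNA genes lie on the same strand as Htr2c. Gm32335 overlaps Htr3a and Gm8217 overlaps Htr5b, each on the opposite strand, and neither has a row in the counts. Whether the counting used strand is not given in the sources used here. Reads of Htr1b and D430036J16Rik, of Htr3a and Gm32335, and of Htr5b and Gm8217 therefore cannot be told apart. These overlaps are of whole gene spans, and whether exons share reads was not tested.

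**Figure D1:**
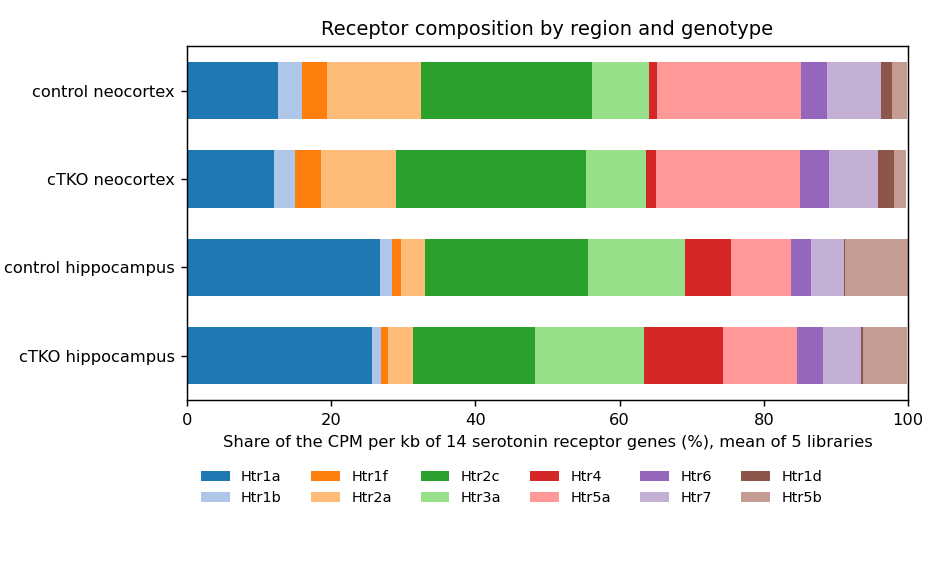
Share of each receptor in the summed CPM per kb of 14 serotonin receptor genes (x axis, %, mean of 5 libraries) in the 4 groups (y axis). Each bar is 1 group, and Htr2b and Htr3b are too low to be drawn. Htr1a takes 12.7% in the control neocortex and 26.7% in the control hippocampus, Htr2a 13.05% and 3.31%.

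In control mice, the receptors with the largest regional differences of opposite direction after Htr4 were Htr1a and Htr2a, and the sequence upstream of both is shown to place these genes. The stretches run from 250 to 61 bases before the RefSeq start in the build GRCm38.p6 on the plus strand, at chr13:105443443-105443632 for Htr1a and chr14:74640624-74640813 for Htr2a. Capitals mark the GC box, searched as GGGCGG on both strands.
Htr1a: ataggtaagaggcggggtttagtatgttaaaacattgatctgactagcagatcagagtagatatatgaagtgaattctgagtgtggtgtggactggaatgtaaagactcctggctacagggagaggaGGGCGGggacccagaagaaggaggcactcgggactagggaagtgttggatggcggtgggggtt
Htr2a: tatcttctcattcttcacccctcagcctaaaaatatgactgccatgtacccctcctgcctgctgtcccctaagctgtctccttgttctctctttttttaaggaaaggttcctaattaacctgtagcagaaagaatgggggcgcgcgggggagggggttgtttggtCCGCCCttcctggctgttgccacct
Each stretch held 1 GC box and neither an E-box (CANNTG) nor a CRE half-site (TGACG). Of 32851 mouse promoter stretches of the same length, 22.8% held a GC box, 57.3% an E-box and 11.7% a CRE half-site, and a match describes the letters only. Of the 10 receptors, 8 had an entry in the RefSeq promoter table.

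The regional comparison asked which receptors differ between hippocampus and neocortex, first in control mice. With edgeR's quasi-likelihood test, fitted without pairing the libraries, 9 of the 10 receptors differed at an FDR under 0.05. Of these, 4 were higher and 5 lower in the hippocampus. Of all 13832 genes tested, 59.1% were called, 29.8% higher and 29.2% lower. The libraries of the regions did not overlap for 6 of the 10 receptors and for 44% of all genes. The median size of the log2 fold change, without its sign, was 0.88 over the receptors and 0.28 over all genes. The regions were extracted with different kits (RNeasy Plus Universal or RNeasy Plus Mini), so kit and region cannot be told apart. In this bulk tissue, fewer cells of a type and less RNA per cell cannot be told apart either.

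Htr4, a Gs-coupled receptor, had the largest difference. Its CPM in the 5 control libraries of the neocortex were 1.81, 2.56, 2.40, 1.44 and 1.53, and in those of the hippocampus 15.2, 14.3, 15.7, 17.0 and 11.9. The lowest hippocampal library lay far above the highest neocortical one. The difference was 7.62-fold (log2 fold change 2.93 ± 0.15, SE, FDR = 5.84e-10 by edgeR), and in cTKO mice it was 9.63-fold (log2 fold change 3.27 ± 0.27).

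Htr1a, the Gi-coupled receptor that is also the autoreceptor of raphe neurons, was 2.90-fold higher in the control hippocampus (log2 fold change 1.53 ± 0.11, SE). Its libraries read 18.1, 20.9, 21.1, 16.9 and 22.2 CPM in the control neocortex and 53.2, 50.9, 52.4, 55.6 and 75.5 CPM in the control hippocampus. The regions did not overlap. In cTKO mice the log2 fold change was 1.45 ± 0.21, with 16.4 to 22.2 CPM in the neocortex and 32.4 to 70.1 CPM in the hippocampus. Htr3a, the subunit of the serotonin-gated channel found in interneurons, was 2.31-fold higher in the control hippocampus, with 11.0 to 15.6 CPM against 4.79 to 6.77 CPM, and 2.34-fold higher in the cTKO hippocampus (log2 fold changes 1.21 ± 0.12 and 1.23 ± 0.22).

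Htr2a, the Gq-coupled receptor of cortical pyramidal neurons on which hallucinogens act, was 2.87-fold lower in the control hippocampus. The control neocortex read 26.4, 22.5, 27.6, 24.8 and 26.4 CPM and the control hippocampus 9.70, 7.84, 9.04, 7.87 and 10.2 CPM. Every neocortical library was above every hippocampal one (log2 fold change -1.52 ± 0.09, SE), and the same held in cTKO mice (13.9 to 24.1 CPM against 6.90 to 9.89 CPM, log2 fold change -1.20 ± 0.15). Htr5a, a Gi-coupled receptor, was lower in the hippocampus of both genotypes, with log2 fold changes of -0.82 ± 0.08 in controls and -0.61 ± 0.08 in cTKO mice. It ranged over 35.9 to 40.3 CPM in the control neocortex and 18.4 to 24.0 CPM in the control hippocampus.

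The Gi-coupled receptors Htr1b and Htr1f, which sit largely on axon terminals, were also lower in the hippocampus. Htr1f ranged over 2.73 to 3.87 CPM in the control neocortex and 1.31 to 2.08 CPM in the control hippocampus (log2 fold change -0.94 ± 0.18, SE, FDR = 0.000404 by edgeR). Htr1b overlapped between the regions of control mice, with 4.46 to 6.81 and 2.31 to 5.08 CPM, and its log2 fold change was -0.50 ± 0.20 (FDR = 0.0388 by edgeR). The call for Htr1b was lost without control neocortex 1 or 2 or control hippocampus 2, 3 or 4, with FDR values up to 0.115. Htr7, a Gs-coupled receptor, was 1.21-fold lower in the control hippocampus (log2 fold change -0.27 ± 0.11, FDR = 0.0407 by edgeR). That call was lost without control neocortex 1, 3, 4 or 5 or control hippocampus 1, 2 or 3, with FDR values up to 0.0974.

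Htr2c, which is abundant in the choroid plexus as well as in neurons, was 1.30-fold higher in the control hippocampus (log2 fold change 0.38 ± 0.12, SE, FDR = 0.0106 by edgeR). One fit of all 20 libraries gave 0.39 with an FDR of 0.0895. The control libraries read 43.1, 45.5, 41.0, 41.4 and 38.2 CPM in the neocortex and 56.6, 53.1, 72.7, 41.1 and 49.9 CPM in the hippocampus. Control hippocampus 4 lay within the neocortical range, and the others lay above it. Choroid plexus genes (8 genes, led by Ttr) summed to 77.7 to 2732 CPM in the control hippocampus and 10.3 to 16.7 CPM in the control neocortex, and their part in the regional difference of Htr2c was not tested. Htr6, a Gs-coupled receptor, had 2.501 to 3.57 CPM in the neocortex and 2.31 to 3.55 CPM in the hippocampus of control mice (log2 fold change 0.03 ± 0.16, FDR = 0.87 by edgeR).

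**Figure D2:**
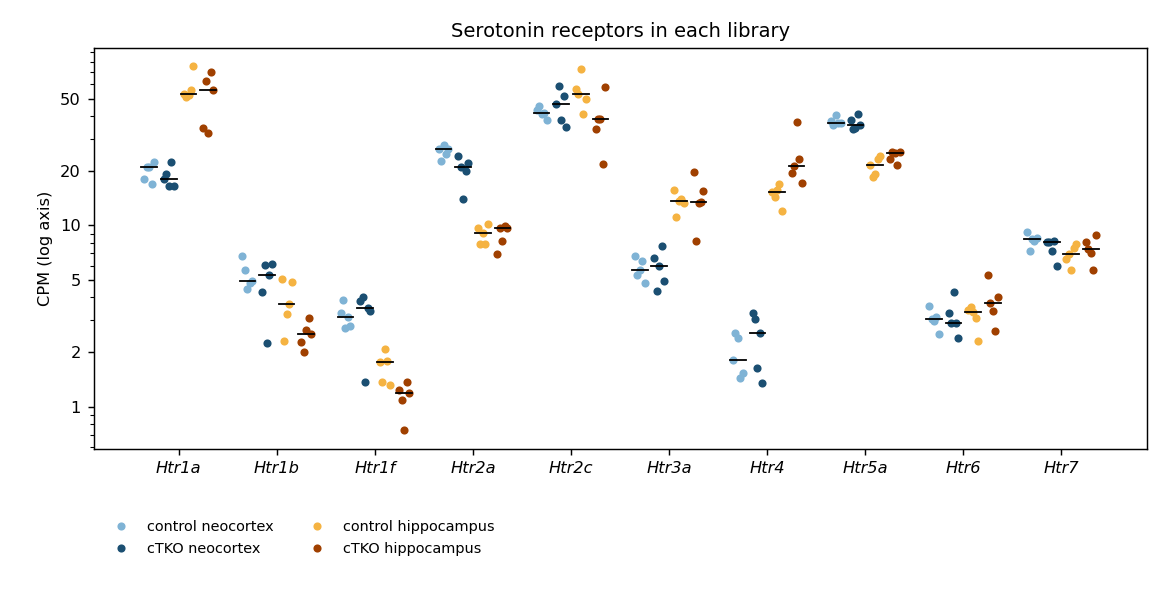
CPM of the 10 receptors (y axis, log axis) in each of the 20 libraries, with 1 point per library, 4 columns per gene (x axis) for the groups and a black line at the median. The points of Htr4 and Htr1a lie higher in the hippocampus, those of Htr2a and Htr5a lower.

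In cTKO mice 7 of the 10 receptors differed between the regions, 3 higher and 4 lower in the hippocampus. Of 13846 genes, 41.3% were called, 20.2% higher and 21.1% lower, and the regions did not overlap for 6 of the receptors and 28.6% of all genes. Htr1b (log2 fold change -0.96 ± 0.25, SE) and Htr1f (-1.53 ± 0.28) were lower, as in controls. Htr2c (-0.29 ± 0.21, FDR = 0.311 by edgeR), Htr6 (0.26 ± 0.22, FDR = 0.368) and Htr7 (-0.03 ± 0.14, FDR = 0.903) were not called. Without cTKO neocortex 5 and cTKO hippocampus 4, the libraries with embryonic transcripts, the count was 7 again. Of the other receptors, Htr5b was higher in the hippocampus of controls (log2 fold change 2.58 ± 0.16) and of cTKO mice (2.17 ± 0.24), and Htr1d, at 7 counts or fewer in each library of the control hippocampus, was lower there than in the neocortex.

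**Figure D3:**
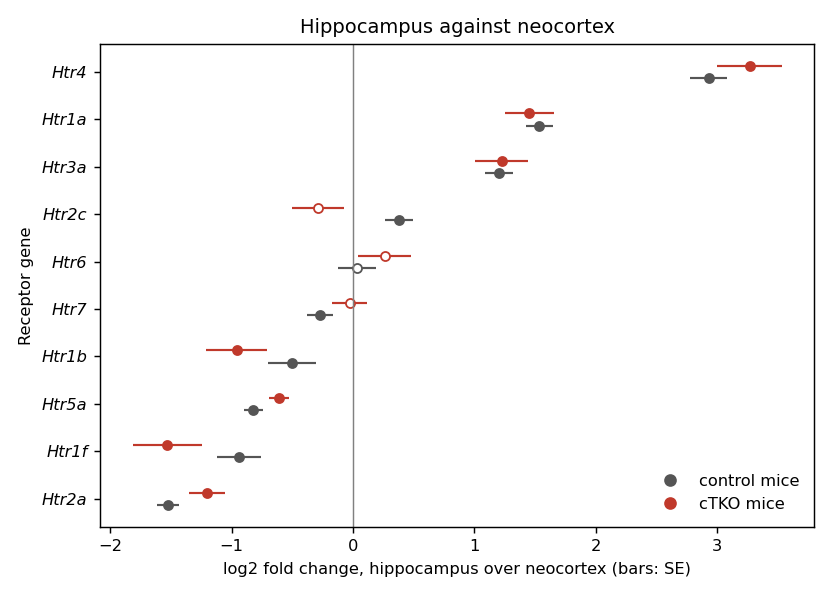
Log2 fold change of each receptor, hippocampus over neocortex (x axis), in control and cTKO mice, with SE as bars; the y axis lists the genes, and filled points passed an FDR of 0.05. Htr4 lies at 2.93 and 3.27, Htr2a at -1.52 and -1.20, and Htr2c at 0.38 and -0.29.

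The comparison of genotypes asked whether receptor transcripts change when the APP family is lost from excitatory neurons. In the neocortex 0 of the 10 receptors passed an FDR of 0.05 with edgeR's quasi-likelihood test (0.188% of all 13843 genes did), and DESeq2 and the likelihood ratio test also called 0. At an unadjusted p under 0.05 there was 1, Htr2a, where 10.4% of all genes were past it. The genotypes overlapped for all 10 receptors, whereas 2.39% of all genes had genotypes that did not. The median size of the log2 fold change was 0.113 over the receptors and 0.0870 over all genes.

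Htr2a read 24.1, 21.0, 13.9, 19.8 and 22.0 CPM in the cTKO neocortex, against the control values above. Of the 5 cTKO libraries, 4 lay below the lowest control library, and cTKO neocortex 1 lay within the control range. The log2 fold change was -0.33 ± 0.12 (SE, edgeR FDR = 0.357), and an exact two-sided permutation test of log2 CPM gave p = 0.0159. Permutation p-values, here and below, are not adjusted for the number of genes tested. Leaving out single libraries gave log2 fold changes from -0.40 to -0.22. The lowest library, cTKO neocortex 3, also had the highest sum of oligodendrocyte genes among the neocortical libraries (5261 CPM against 2683 to 4409 CPM), and the part of this in the result was not tested.

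Among the other neocortical values, Htr4 had the next largest log2 fold change (0.32 ± 0.27, SE). Its 1.35 to 3.30 CPM in the cTKO libraries overlapped the 1.44 to 2.56 CPM of the controls. The 3 receptors of the 1 family had log2 fold changes of -0.09 ± 0.10 (Htr1a), -0.15 ± 0.23 (Htr1b) and 0.04 ± 0.24 (Htr1f). Htr2c stood at 0.15 ± 0.12 with 34.9 to 58.8 CPM in cTKO libraries, Htr7 at -0.14 ± 0.12, Htr6 at 0.06 ± 0.18, Htr3a at 0.04 ± 0.16 and Htr5a at -0.02 ± 0.07. The narrowest of these, Htr5a, ranged over 34.0 to 41.0 CPM in the cTKO neocortex.

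In the hippocampus 0 of the 10 receptors passed an FDR of 0.05 in the quasi-likelihood test, where 0.489% of all 13702 genes did. At an unadjusted p under 0.05 there were 5 (Htr4, Htr1b, Htr1f, Htr2c and Htr5a), where 12% of all genes were past it. The likelihood ratio test and DESeq2 each called 1 receptor, Htr4. The 0.489% belongs to the quasi-likelihood test, and the share of all genes under the other tests is not given here. The median size of the log2 fold change was 0.238 over the receptors and 0.0908 over all genes, and 5 of the 10 values were positive.

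The largest estimate was that of Htr4. The cTKO hippocampus read 19.5, 21.2, 36.9, 23.1 and 17.1 CPM, against 11.9 to 17.0 CPM in the controls given above. All 5 cTKO libraries were above all 5 controls, although the gap between the closest libraries was small. Among all genes tested in the hippocampus, 3.01% had genotypes that did not overlap, and Htr4 was the 1 receptor of the 10 in which this was so. The log2 fold change was 0.67 ± 0.18 (SE, edgeR FDR = 0.158), the likelihood ratio test gave an FDR of 0.0315 and DESeq2 one of 0.0225. The exact two-sided permutation test gave p = 0.00794, the smallest it can give with 5 against 5 libraries. It gives this value whenever the groups do not overlap. Without cTKO hippocampus 3, the highest library, the log2 fold change was 0.45 (FDR = 0.133 by edgeR).

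The estimates for Htr1b and Htr1f, Gi-coupled receptors of axon terminals, were below 0 in the hippocampus. Htr1d, another receptor of the 1 family, did not pass the filter there. Htr1b read 5.08, 2.31, 3.25, 3.69 and 4.87 CPM in the control hippocampus and 2.26, 2.003, 2.63, 3.08 and 2.504 CPM in the cTKO hippocampus, and the genotypes overlapped through control hippocampus 2. Its log2 fold change was -0.61 ± 0.22 (SE, edgeR FDR = 0.293, exact permutation p = 0.0476). Htr1f, the least abundant of the 10 in the hippocampus, read 1.76, 1.37, 2.08, 1.77 and 1.31 CPM in controls and 1.23, 1.09, 0.741, 1.37 and 1.19 CPM in cTKO mice, from 18 to 46 counts per library. With a log2 fold change of -0.56 ± 0.22 (edgeR FDR = 0.349, exact permutation p = 0.0238), its genotypes overlapped as well. Htr1a, also Gi-coupled, had a log2 fold change of -0.16 ± 0.20, and its cTKO libraries were spread over 34.5, 62.5, 32.4, 70.1 and 56.0 CPM.

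Htr2c read 33.9, 38.6, 38.4, 21.7 and 57.7 CPM in the cTKO hippocampus, and 4 of these 5 libraries lay below the lowest control of 41.1 CPM. The log2 fold change was -0.52 ± 0.21 (SE, edgeR FDR = 0.350, exact permutation p = 0.0714). Choroid plexus genes went the same way in these libraries, and their summed CPM were 412, 499, 2732, 277 and 77.7 in the control libraries and 114, 148, 146, 191 and 608 in the cTKO libraries. The library with the highest sum of each genotype, control hippocampus 3 and cTKO hippocampus 5, was also the one with the most Htr2c. Control hippocampus 5, however, had the lowest sum of all 10 hippocampal libraries and 49.9 CPM of Htr2c. The least Htr2c, 21.7 CPM, was in cTKO hippocampus 4, whose sum of 191 CPM was above those of cTKO hippocampus 1, 2 and 3. All 8 choroid plexus genes were estimated lower in cTKO mice, with a median log2 fold change of -1.55. Of the 8, edgeR called 0 (5 at an unadjusted p under 0.05, where 12% of all genes were past it). With the summed list as a covariate, a choice made after the data had been seen, the log2 fold change of Htr2c was -0.35 (FDR = 0.699 by edgeR). It was -0.39 without control hippocampus 3, -0.38 without cTKO hippocampus 4 and -0.72 without cTKO hippocampus 5. The cause of the lower Htr2c estimate was not tested.

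**Figure D4:**
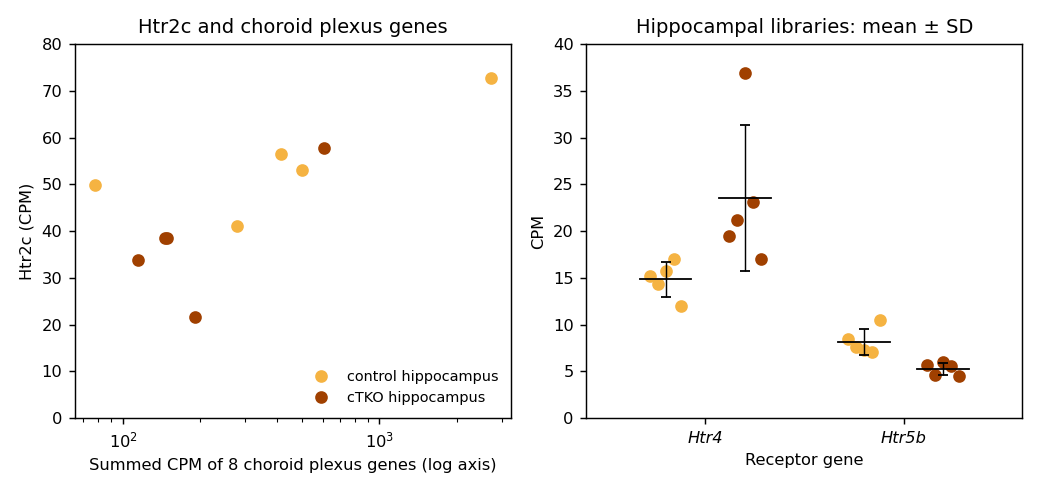
Left, Htr2c (CPM, y axis) against the summed CPM of 8 choroid plexus genes (x axis, log axis) in the 10 hippocampal libraries. Right, CPM of Htr4 and Htr5b (x axis) in the same libraries, with the mean and SD as black lines. The highest Htr2c, 72.7 CPM, is in the library with 2732 CPM of choroid plexus genes, and the lowest, 21.7 CPM, in a library with 191 CPM. The cTKO libraries lie above the controls for Htr4 and below them for Htr5b.

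For the remaining receptors in the hippocampus, Htr5a had a log2 fold change of 0.19 ± 0.09 (SE, edgeR FDR = 0.408), with 21.4 to 25.5 CPM in cTKO libraries. Htr6 stood at 0.29 ± 0.20, Htr7 at 0.11 ± 0.13, Htr3a at 0.06 ± 0.18 and Htr2a at -0.0046 ± 0.13. The other receptor of the 5 family, Htr5b, read 8.44, 7.58, 7.23, 7.05 and 10.5 CPM in controls and 5.63, 4.62, 6.05, 5.54 and 4.54 CPM in cTKO mice. Its genotypes did not overlap, as in 3.01% of all genes tested in the hippocampus. Its log2 fold change was -0.62 ± 0.14 (edgeR FDR = 0.0861, likelihood ratio test FDR = 0.0138, DESeq2 FDR = 0.00572). The exact permutation p of 0.00794 is the smallest possible, which that test gives whenever the groups do not overlap.

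**Figure D5:**
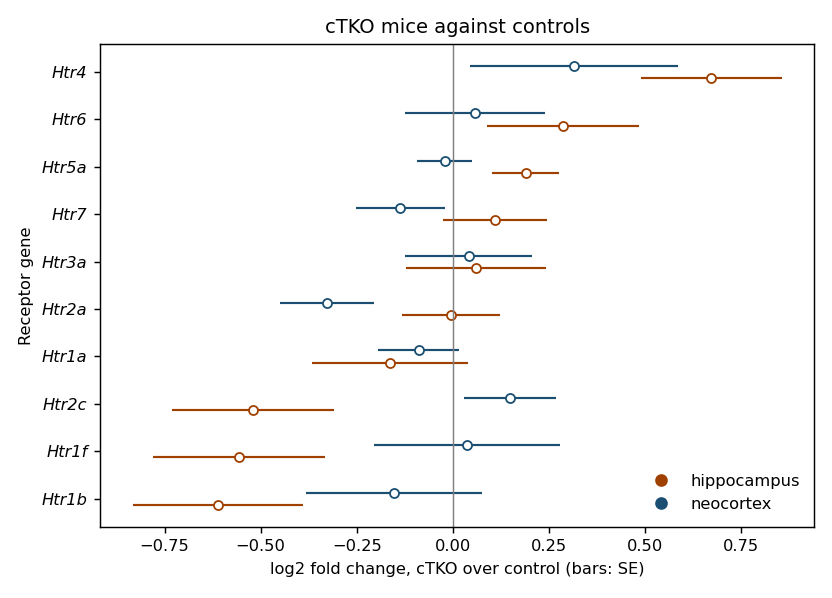
Log2 fold change of each receptor, cTKO over control (x axis), in hippocampus and neocortex, with SE as bars; the y axis lists the genes, and open points did not pass an FDR of 0.05. All 20 points are open, from -0.61 for Htr1b to 0.67 for Htr4, both in the hippocampus.

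Whether the genotype difference itself differed between the regions was tested as the interaction in one fit of all 20 libraries. Of the 10 receptors, 0 passed an FDR of 0.05, where 0.0564% of 14192 genes did, and the likelihood ratio test and DESeq2 also called 0. At an unadjusted p under 0.05 there was 1, Htr2c, with a log2 difference of -0.66 ± 0.26 (SE, edgeR FDR = 0.9999), where 3.75% of all genes were past it. For Htr4 the log2 difference between its hippocampal and neocortical change was 0.34 ± 0.33 (edgeR FDR = 0.9999).

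The spread between libraries was mostly wider in the cTKO groups, which was described and not tested. In the neocortex 10 of the 10 receptors had a larger SD of log2 CPM in cTKO libraries than in controls, as did 70.5% of all genes tested, and without cTKO neocortex 5 the shares were 9 of 10 and 62.1%. In the hippocampus it was 8 of 10 receptors and 74.2% of all genes, and 7 of 10 and 68% without cTKO hippocampus 4. The coefficient of variation of Htr1a was 17.7% in the control and 33.0% in the cTKO hippocampus, that of Htr3a 12.1% and 29.6%, and that of Htr4 12.7% and 33.1%. Htr1b was an exception in the hippocampus with 29.9% in controls and 16.2% in cTKO mice.

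Genes that make, carry and degrade serotonin were read from a list of 12, of which 9 were tested in the hippocampus. The 1 called between the genotypes there was Aldh2, the mitochondrial aldehyde dehydrogenase that acts after monoamine oxidase, with a log2 fold change of -0.40 ± 0.07 (SE, FDR = 0.0204 by edgeR). Of all genes tested in the hippocampus, 0.489% were called. In the neocortex 0 of the 8 tested were called (1 at an unadjusted p under 0.05, where 10.4% of all genes were past it). Between the regions of control mice 7 of 10 were higher in the hippocampus and 1 lower, where 29.8% and 29.2% of all genes were. The largest differences were those of Slc18a2, the vesicular monoamine transporter (3.68 ± 0.38), Slc29a4, the plasma membrane monoamine transporter (1.94 ± 0.14), and Slc22a3, an organic cation transporter (-1.93 ± 0.28). In cTKO mice 4 of 9 were higher, where 20.2% of all genes were. Among them were Slc18a2 (2.96 ± 0.38), Slc29a4 (1.35 ± 0.17) and Tph2, the neuronal enzyme that starts serotonin synthesis (1.07 ± 0.30). Tph2 was not called in control mice. It was low, since the raphe marker genes that include it summed to at most 2.80 CPM in any library.

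Of 24 G protein and effector genes, 23 were tested in the hippocampus, and the 1 called between the genotypes was Rgs4, a protein that shortens Gi and Gq signals, with a log2 fold change of 0.75 ± 0.13 (SE, FDR = 0.0236 by edgeR). Of all genes tested in the hippocampus, 0.489% were called. In the neocortex edgeR called 0 of 23 (6 at an unadjusted p under 0.05, where 10.4% of all genes were past it). Between the regions of control mice 6 of 23 were higher and 11 lower in the hippocampus, where 29.8% and 29.2% of all genes were. The largest differences were those of Plcb4, a phospholipase C downstream of Gq (-2.07 ± 0.08), Rgs4 (-1.44 ± 0.07) and Kcnj9, a potassium channel subunit opened by Gi/o proteins (-1.21 ± 0.07). In cTKO mice it was 6 higher and 6 lower, where 20.2% and 21.1% of all genes were. Plcb4 stood at -1.70 ± 0.11, Kcnj9 at -0.92 ± 0.12 and Gnal, a stimulatory G protein subunit, at -0.75 ± 0.10.

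Partners and regulators of the receptors, 11 genes in the files, gave 0 calls between the genotypes in either region with edgeR. At an unadjusted p under 0.05 there were 0 in the neocortex and 1 in the hippocampus, where 10.4% and 12% of all genes were past it. Between the regions of control mice 5 were higher and 2 lower in the hippocampus, where 29.8% and 29.2% of all genes were. The largest were Cops5 (0.46 ± 0.07, SE) and the RNA-editing enzymes Adar (-0.45 ± 0.07) and Adarb1 (-0.40 ± 0.06), which edit the Htr2c transcript. In cTKO mice 3 were higher and 2 lower, where 20.2% and 21.1% of all genes were. Cops5 stood at 0.47 ± 0.10, Adarb1 at -0.45 ± 0.07 and Fyn, a tyrosine kinase, at 0.40 ± 0.09. Lamp5, one of 8 marker genes of caudal interneurons, in which Htr3a is found, was the 1 of the list called between the genotypes in the hippocampus (-0.52 ± 0.09, FDR = 0.0204 by edgeR). Of all genes tested there, 0.489% were called. The list as a whole had a median log2 fold change of -0.053 and a highest value of 0.27, and Htr3a was not called.

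The genes whose values followed each receptor most closely were taken by Pearson's r of the deviations from the group mean over the 20 libraries, among 14192 genes, as a description in which the points share libraries and depth. Htr7 was followed most closely by Mapk8ip2 (r = 0.922) and Dctn1 (0.889), and Htr6 by Arhgdig (0.893) and Pgm2 (0.878). For the 1 family the closest genes were Npy2r (0.874) and Fam214a (0.851) for Htr1a, Sike1 (0.870) and Arfgef1 (0.867) for Htr1b, and Zfyve16 (0.848) and Dcx (0.845) for Htr1f. Htr2a was followed by Ehbp1 (0.848) and Eml6 (0.823), Htr2c by Myo16 (0.770) and Spata32 (0.768), and Htr3a by Dkk3 (0.851) and Nostrin (0.809). The closest to Htr4 were Slco5a1 (0.840) and Ice1 (0.823), and to Htr5a Prrg3 (0.813) and Map7d2 (0.798). Of the 10, Htr2c had the lowest leading value.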

How the data were processed

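RNA of 20 libraries (5 for each genotype and region) was analysed from the raw counts per gene symbol that the authors deposited, 1 file per library. Per the submitters' processing notes and the methods, reads of poly-A selected libraries were mapped to mm10 with STAR 2.5.4a and counted with HTSeq; the annotation and strand setting are not given in the sources used here. The members and the gene lists were chosen with earlier results of these data known, and the genes named from lists are those called between genotypes and the 3 largest calls of each list between regions, besides the 2 genes closest to each receptor.

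A gene entered a comparison when 5 or more of its libraries exceeded 1 CPM, and the test was the quasi-likelihood F test of edgeR 4.0.16 under R 4.3.3 (TMM scaling, estimateDisp, glmQLFit, glmQLFTest), with Benjamini-Hochberg adjustment across every gene tested and calls at an FDR under 0.05. Log2 CPM for exact permutation tests used a prior count of 2. The alternatives were the likelihood ratio test, DESeq2 1.42.0, its size factors, other filters, Xist as a covariate, 1 fit of all libraries, the replicate number as a block and each library left out. The SE of an edgeR log2 fold change was derived as its absolute value divided by the square root of the F statistic. The procedures were tested on simulated data. Lengths, positions and promoter sequences were read from GENCODE M21 and RefSeq (GRCm38), and figures were drawn with matplotlib 3.10.9.

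Neither labels nor methods say that a number marks a mouse. In control mice all 5 same-numbered pairs of neocortex and hippocampus deviated together (r = 0.129 to 0.334). The numbers were taken as pairs there, but only in the fit with the replicate block. The reported tests between regions and of the interaction treated the libraries as independent. In cTKO mice 3 of 5 pairs had an r over 0.1, and the highest r, 0.575, was between neocortex 5 and hippocampus 4, the libraries with embryonic transcripts. Between genotypes it was 3 of 5 pairs in the neocortex and 1 of 5 in the hippocampus. Per the methods, both regions came from 5 cTKO mice and 5 controls. Depths were 12169474 to 25331954 counts, and the floor of 3 counts speaks of counting error alone, because such reads carry no molecular identifiers and so are not independent molecules.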

Additional observations from a re-analysis of the deposited data

Results flagged for a closer look

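Of 40 sets of 5 libraries (10 receptors in 4 groups) examined for a library far from the others, 2 were singled out, and chance does so in about 5% of such sets. In the control hippocampus, Htr1a was 75.5 CPM in library 5, against 50.9 to 55.6 CPM in the other 4 libraries. Without that library its log2 fold change between the regions of control mice was 1.42 in place of 1.53, and between the genotypes -0.05 in place of -0.16. In the cTKO neocortex, Htr1f was 1.37 CPM in library 3, against 3.38 to 4.01 CPM in the other 4 libraries. The log2 fold change of Htr1f between the genotypes of the neocortex was 0.22 without that library (FDR = 0.586 by edgeR) in place of 0.04.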

How the results depend on the processing

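The count of receptors called stayed within 1.5 times the reported one in 100 of 102 recomputations. The exceptions were the genotype comparison in the hippocampus, where the likelihood ratio test and DESeq2 each called 1 receptor (Htr4) in place of 0. The share of all genes that these tests called there is not given here. In control mice the count between regions ranged from 6 (1 fit of all 20 libraries, without Htr1b, Htr2c and Htr7) to 9, and from 7 to 9 with a library left out. In cTKO mice it was 7 throughout. With the replicate block, which pairs the regions of control mice, the counts were 9 in control mice and 7 in cTKO mice, with 0 in both genotype comparisons and in the interaction, so the block changed no call; outside the control mice the samples share only a number, and cTKO neocortex 5 and cTKO hippocampus 4 had r values of -0.071 and -0.057 with the library of their own number. Without a filter on low counts Htr1b (FDR = 0.0506) and Htr7 (FDR = 0.0853) were not called in control mice.

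Estimates near 0 changed sign, none of them called. With 1 library left out, the log2 fold changes between genotypes ranged in the neocortex from -0.26 to 0.020 for Htr1b, -0.058 to 0.22 for Htr1f, -0.073 to 0.13 for Htr3a, -0.070 to 0.0038 for Htr5a and -0.074 to 0.12 for Htr6, and in the hippocampus from -0.055 to 0.071 for Htr2a and -0.095 to 0.20 for Htr3a. Between regions they ranged from -0.031 to 0.13 for Htr6 in control mice and -0.099 to 0.056 for Htr7 in cTKO mice, and in the interaction from -0.22 to 0.057 for Htr1a and -0.14 to 0.17 for Htr3a. Htr2a was 0.0013 in the hippocampus with the choroid plexus list as covariate, added after seeing the data, and the interaction of Htr3a was -0.00095 with the replicate block and -0.018 without cTKO neocortex 5 and cTKO hippocampus 4. The cause was not tested. Depth limits Htr1f, with 18 to 30 counts per library in the cTKO hippocampus, and Htr4, with 18 to 73 in the cTKO neocortex. The exact permutation p of Htr5a was 0.0238 with total counts in place of TMM.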
